A study of Homo sapiens with 12 samples.

Results

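The genes described here are 10 genes of origin licensing, the step that makes a stretch of DNA competent to be copied. They are the 6 subunits of the replicative helicase (MCM2, MCM3, MCM4, MCM5, MCM6 and MCM7), the loading factors CDC6 and CDT1, the CDT1 inhibitor geminin (GMNN) and the firing factor MCM10. They were chosen by name and found through their Ensembl identifiers, and all 10 were present among the 60669 identifiers of the deposited count table. All 10 also passed the filter on low counts that left 18720 genes for testing.

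Quinacrine (QC), an antimalarial drug, was given to 6 human cell lines that the study describes as ovarian cancer lines. PolyA RNA was sequenced to ask how the transcriptome of drug-resistant cells responds relative to that of their sensitive partners. The sensitive lines were OV2008, HeyA8 and SK-OV-3. Their resistant partners were HeyA8-MDR (carboplatin resistant per the study's methods), SK-OV-3-TR (taxol resistant) and C13 (cisplatin resistant, derived from OV2008). Each line was kept for 6 h with 8 µM QC or with vehicle (0 µM, a buffer), and gave 1 library per treatment, 12 in all. There was thus no replicate within a line, and the 3 lines of a class served as its replicates. A resistant line and its sensitive partner share their origin, so the 6 lines are not 6 independent backgrounds. The p-values rest on the spread between lines, which edgeR moderates with information from the other genes. In the per-class fits this spread is shared over all 12 libraries, and is not that of a single class.

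Total counts ran from 17782556 to 30585059 per library, with a median of 22289428. The HeyA8 library with QC stood apart. For genes that reached 5 CPM and differed at least 8-fold between the HeyA8 and HeyA8-MDR vehicle libraries, the median position of its level between both, as a share of the CPM gap, was 37.4% for the 65 genes higher in HeyA8-MDR and 53.1% for the 108 genes lower there. In the other 5 lines the same measure ran from -0.00987% to 3.71% for genes higher in the partner line. For genes lower in the partner line it ran from 3.63% to 30.5%. Of the licensing genes, 9 of 10 were shifted in this library from the HeyA8 vehicle level towards HeyA8-MDR, as were 68.9% of all genes tested. CDT1 was shifted the other way. Both shifts are taken from the same HeyA8 vehicle library, whose error alone favours like directions. This share was not computed for the other lines and does not by itself set the library apart. Whether the HeyA8 library with QC contains RNA of both lines was not tested. The single-line values of HeyA8 rest on it. Many of the fitted values over several lines are therefore also given without HeyA8 or without both HeyA8 lines. Levels are given as CPM, counts scaled to a common library size after TMM normalization. Of the ovarian and epithelial markers, PAX8 was at 234 CPM or more in the HeyA8 and SK-OV-3 pairs. In OV2008 and C13 PAX8 was at 7.56 to 24.8 CPM and KRT7 at 13.8 to 26.9 CPM. In these lines EPCAM was at 183 to 246, KRT8 at 1828 to 3961, KRT18 at 922 to 2104 and KRT19 at 835 to 2009 CPM. WT1 was at most at 4.79 CPM in any library. In the HeyA8 pair EPCAM was at 0 to 2.93 CPM and KRT19 at 0.104 to 0.355 CPM. KRT7 was at 415 to 731, KRT8 at 812.5 to 1056 and KRT18 at 479 to 621 CPM in that pair. Summed over the 8 markers of that list, the level ran from 1303 to 7982 CPM. The leukocyte markers PTPRC and CD3E and the fibroblast marker DCN were at most at 0.681 CPM in the 12 libraries, while the endothelial marker CDH5 reached 176 CPM in the HeyA8 pair.

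Licensing happens from late mitosis through G1. The origin recognition complex marks origins and, together with CDC6 and CDT1, threads pairs of MCM2-7 rings onto the DNA. Geminin accumulates in S and G2 and holds CDT1 so that origins are not licensed again, and CDT1 protein is also degraded once replication starts. MCM10 joins when the loaded helicase is activated. Transcripts of most of these genes are produced under E2F control as cells approach S phase, and abundant MCM protein is a common mark of proliferating cells.

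The promoters of 4 genes around which the results turn are shown from RefSeq (GRCh38.p14), each from 150 bases before to 20 bases after an annotated start: CDT1, the gene that was lower with QC in every line, CDC6, the other loader, MCM6, the gene with the largest difference between sensitive and resistant lines in its response, and GMNN, whose product inhibits CDT1. The CDT1 stretch is chr16:88803639-88803808 (plus strand), CDC6 is chr17:40287729-40287898 (plus strand), MCM6 is chr2:135876424-135876593 (minus strand), and GMNN is chr6:24775263-24775432 (plus strand, at the downstream one of its annotated starts). Capitals mark complete matches, on either strand, to an E2F-type word, which is any of TTTCCCGC, TTTCCCGG, TTTCGCGC, TTTCGCGG, TTTGCCGC, TTTGCCGG, TTTGGCGC or TTTGGCGG.
CDT1: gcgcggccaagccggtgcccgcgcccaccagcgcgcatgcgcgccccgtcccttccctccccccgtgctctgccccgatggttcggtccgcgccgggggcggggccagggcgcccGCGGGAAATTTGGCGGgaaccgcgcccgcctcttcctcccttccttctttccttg
CDC6: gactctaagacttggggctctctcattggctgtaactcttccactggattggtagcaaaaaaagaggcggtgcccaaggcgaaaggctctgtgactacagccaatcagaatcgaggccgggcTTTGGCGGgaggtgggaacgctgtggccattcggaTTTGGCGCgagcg
MCM6: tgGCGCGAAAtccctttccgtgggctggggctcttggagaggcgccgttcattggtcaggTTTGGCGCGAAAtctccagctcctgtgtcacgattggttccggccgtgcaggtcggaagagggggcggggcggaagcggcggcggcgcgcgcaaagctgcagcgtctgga
GMNN: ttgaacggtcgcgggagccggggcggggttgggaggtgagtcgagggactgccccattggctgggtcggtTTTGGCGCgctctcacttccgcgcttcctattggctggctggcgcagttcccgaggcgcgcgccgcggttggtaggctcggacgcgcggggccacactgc
In CDT1, 2 such words on opposite strands lay side by side from position -35 to -20, counted from the start with no position 0. In CDC6 they began at -28 and 8. In MCM6 a pair overlapped from -90 to -79, the last 4 bases of one being the first 4 of the other on the opposite strand, and another pair from -152 to -141 was only partly inside the stretch shown. The GMNN word began at -80.

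Promoter windows (250 bases before to 50 after a start) were at hand for 8 of the 10 genes, all but MCM4 and MCM5. Each of the 8 had the E2F-type word in at least 1 of its windows (9 of 11 windows), beside 6.19% of all 35116 windows and 7.43% of the 27305 genes. The letters CCAAT were found in 6 of the 8 genes (39.7% of all genes), with CDT1 and MCM2 the genes without them. The words TTTGAA or TTCGAA, which occur in promoters of many genes of G2 and mitosis, were found in MCM6 alone (19.5% of all genes). These matches describe the letters of the windows and show no binding.

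The levels of the licensing genes differed most between lines. OV2008 and its derivative C13 had the highest levels of the helicase subunits, of CDC6 and of MCM10. For 8 of the 10 genes all 4 libraries of these lines lay above the other 8, which was so for 11% of all genes tested. The pattern was not particular to licensing genes. Of the related genes named further below, only ORC1, UNG, CHAF1B and SKP2 had it too. The pattern was absent from ORC4, TOPBP1, DONSON, MCM9, MCM3AP, CUL4B, RB1, E2F7, TIMELESS, POLD1, TOP2A and CDK1. ORC1 ran from 45.1 to 70.3 CPM in the OV2008 and C13 libraries and from 3.41 to 16.1 CPM in the others. MCM2 ran from 215 to 319 CPM in the OV2008 and C13 libraries and from 40.9 to 88.5 CPM in the others. MCM3 ran from 316 to 415 against 41.8 to 149 CPM. MCM10, the least abundant gene per length, ran from 62.1 to 90.4 against 6.27 to 23.8 CPM. CDC6 ran from 130 to 171 against 8.72 to 43.5 CPM. The exceptions were CDT1 and GMNN, the loader and its inhibitor, whose ranges overlapped: CDT1 was at 40.5 to 124 CPM in OV2008 and C13 and at 8.86 to 64.9 CPM elsewhere, and GMNN at 35.8 to 66.0 and 7.95 to 39.0 CPM. The order was the same in the plot of levels, where the green points stand above the others for every gene but these 2.

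**Figure D1:**
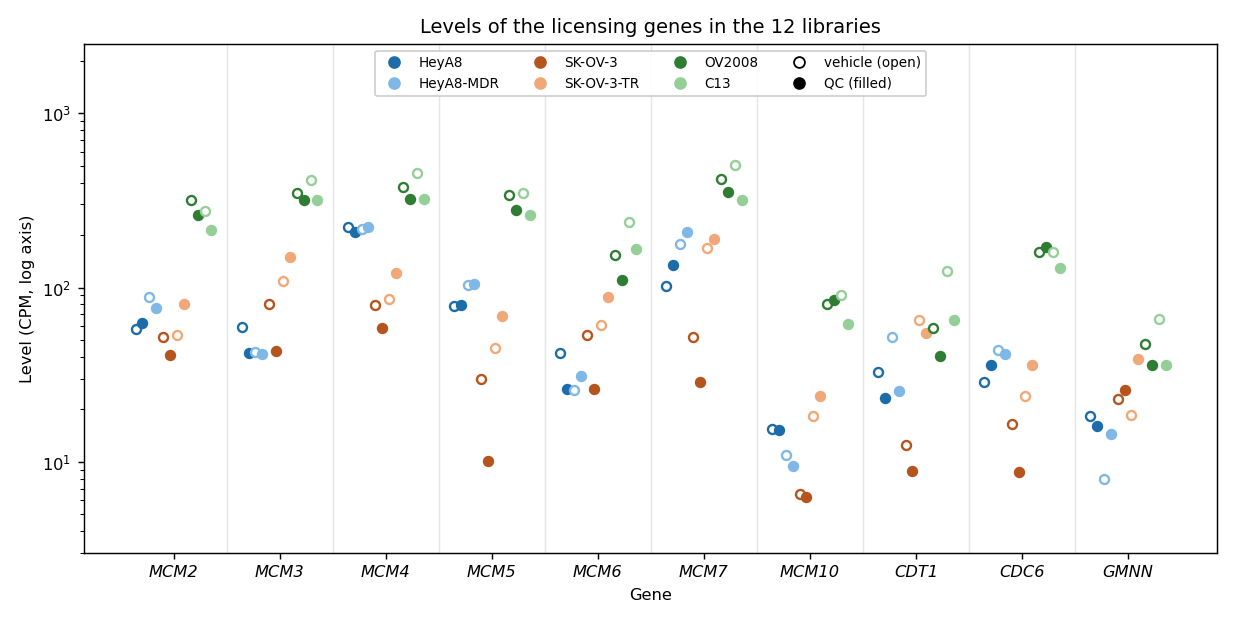
Level of each licensing gene (CPM, log axis) in the 12 libraries, with 1 point per library, open for vehicle and filled for QC, coloured by line. OV2008 and C13 (green) lay above all other libraries for 8 of the 10 genes, and SK-OV-3 with QC had the lowest MCM5 level at 10.1 CPM.

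Corrected for the length of the merged exons, the median vehicle level over the 6 lines was highest for MCM7 at 34.9 CPM per kb, followed by MCM3 at 26.0, MCM4 at 22.2, CDT1 at 20.05, MCM2 at 15.5, MCM6 at 13.8, MCM5 at 12.5, GMNN at 8.34, CDC6 at 6.79 and MCM10 at 3.09 CPM per kb. The ranges of neighbours in this order overlapped between lines. The helicase holds each MCM subunit once, but the transcripts were not equal: within a library the most abundant of MCM2 to MCM7 exceeded the least abundant by 2.23-fold in HeyA8 with vehicle to 8.54-fold in SK-OV-3 with QC, per kb. The subunit at the bottom depended on the line, with MCM6 lowest in the HeyA8 pair and OV2008, MCM5 lowest in the SK-OV-3 pair and MCM4 lowest in C13, with vehicle and with QC alike. MCM4 and MCM5 have long annotated exon sets, and a different choice of transcripts would move these per-length values. Some exon bases of MCM7 overlap AP4M1 (392 bases) and some of MCM2 overlap a long noncoding RNA (1113 bases), both on the other strand. Whether counting used the strand is not given in the sources used here, so reads of those stretches cannot be told apart.

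Over the 12 libraries, the genes outside the lists whose log2 CPM was most like the mean of MCM2 to MCM7 were SH3BP1 and TNIK (both r = 0.98), SORD and FGFBP1 (both 0.97), and XRCC5 and PRMT1 (both 0.96). Among the licensing genes themselves, the correlation of the level with the mean of MCM2 to MCM7 (a subunit itself left out) was 0.98 for CDC6, 0.96 for MCM10 and 0.80 for CDT1, and lowest for GMNN at 0.65. These values are descriptions over 12 libraries that share lines, and OV2008 and C13 stood above the rest for most of these genes.

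CDT1 was the licensing gene that was lower with QC in 6 of 6 lines, a pattern found in 4.6% of all genes tested. In the 5 lines other than HeyA8 it was lower in 5 of 5, as were 6.16% of all genes. Its level went from 32.6 CPM with vehicle to 23.1 CPM with QC in HeyA8, and from 52.3 to 25.5 CPM in HeyA8-MDR. In SK-OV-3 it went from 12.5 to 8.86 CPM, and in SK-OV-3-TR from 64.9 to 54.8 CPM. In OV2008 it went from 58.4 to 40.5 CPM, and in C13 from 124 to 65.5 CPM. HeyA8-MDR and C13 had the largest differences and SK-OV-3-TR the smallest, and in no line did the QC level reach the vehicle level. The log2 differences ranged from -1.03 in HeyA8-MDR to -0.24 in SK-OV-3-TR, and even the latter exceeded counting error, with a 95% counting interval of -0.35 to -0.14. Such intervals cover counting error only. In bulk RNA, fewer cells with the transcript and less of it per cell cannot be told apart.

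In edgeR's quasi-likelihood test with the line as a block, CDT1 differed by -0.62 on the log2 scale (SE 0.132) over the 6 lines, with an unadjusted p of 0.000473 and a Benjamini-Hochberg adjusted p of 0.141. It ranked 58 of 18720 genes by p. No gene passed an adjusted p of 0.05 in that test (0%), while 2840 genes (15.2%) had an unadjusted p under 0.05, and CDT1 was the only one of the 10 licensing genes among them. DESeq2 called 522 genes, CDT1 among them (adjusted p = 0.0034). In edgeR, CDT1 also passed with no filter on low counts (adjusted p = 0.00647), and had adjusted p-values from 0.0929 to 0.392 when 1 line was left out. Without HeyA8 the difference was -0.65, and without both HeyA8 lines -0.55 (adjusted p = 0.504).

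Geminin did not follow. GMNN went from 18.3 to 16.1 CPM in HeyA8 and from 7.95 to 14.3 CPM in HeyA8-MDR. It went from 22.8 to 25.8 CPM in SK-OV-3 and from 18.5 to 39.0 CPM in SK-OV-3-TR. In OV2008 it went from 47.3 to 35.9 CPM and in C13 from 66.0 to 35.8 CPM. It was thus lower in 3 lines and higher in 3, with log2 differences from -0.88 in C13 to 1.07 in SK-OV-3-TR, and over all lines the difference was 0.09 (SE 0.23) with an adjusted p of 0.882 in edgeR. Its sign turned without both HeyA8 lines (-0.0197). The transcript ratio of CDT1 to GMNN, per length, was looked at after their values were known. With QC it was at 0.272 of its vehicle value for HeyA8-MDR, 0.403 for SK-OV-3-TR, 0.629 for SK-OV-3 and 0.805 for HeyA8, below 1 by more than counting error in these 4 lines. In C13 (0.97, counting interval of the log2 ratio -0.18 to 0.09) and OV2008 (0.915, -0.32 to 0.06), where both transcripts were lower, it did not differ beyond counting error. The ratio of CDT1 to a gene was lower in 6 of 6 lines for 42.8% of the other genes tested, so such a count says little about GMNN. The slopes of the paired plot show the contrast between the 2 genes.

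**Figure D2:**
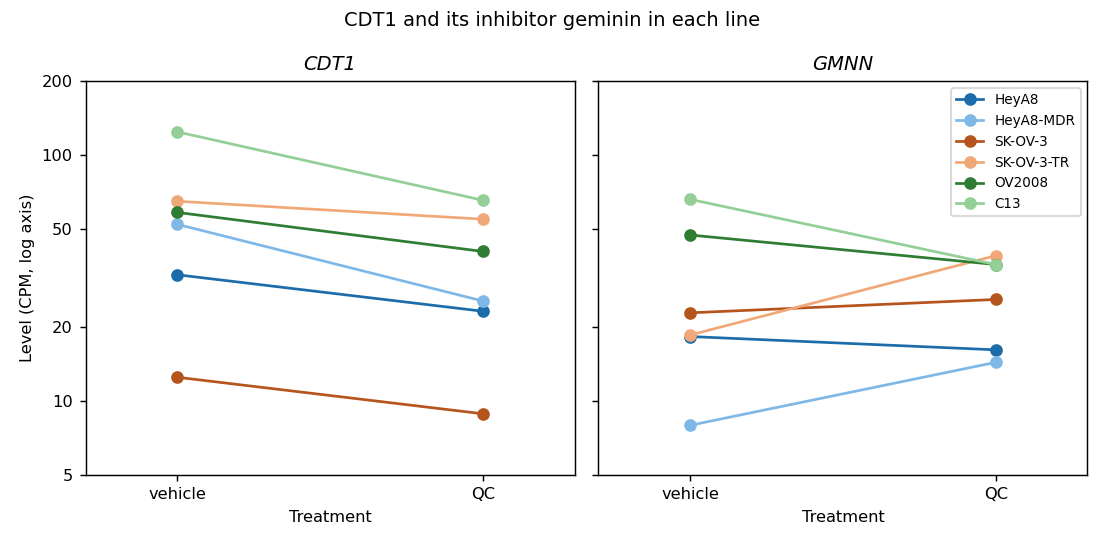
Level of CDT1 (left) and GMNN (right) in CPM on a log axis with vehicle and with QC, where each line joins the 2 libraries of a cell line. All 6 CDT1 lines slope down, while GMNN sloped up in HeyA8-MDR, SK-OV-3 and SK-OV-3-TR and down in the other 3.

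The helicase subunits differed with QC by line rather than in common. In SK-OV-3 all 6 were lower, with a mean log2 difference of -0.85, or 0.554 of the vehicle level. In its resistant partner SK-OV-3-TR all 6 were higher, with a mean of 0.47 (1.39-fold). They were lower in OV2008 (mean -0.28) and in C13 (mean -0.47), and mixed in HeyA8 (mean -0.12) and HeyA8-MDR (mean 0.05). Counting all 10 licensing genes, 9 were lower in SK-OV-3, where 47.3% of all genes were lower, 8 in OV2008 (45.7%) and 10 in C13 (48.7%). In SK-OV-3-TR 9 were higher (47.3% of all genes), CDT1 being the exception. In HeyA8 6 were lower (47.9%) and in HeyA8-MDR 5 (49.4%). The median over the 10 genes was -0.05 in HeyA8, -0.01 in HeyA8-MDR, -0.68 in SK-OV-3, 0.51 in SK-OV-3-TR, -0.26 in OV2008 and -0.50 in C13, beside medians over all genes of 0.00 in each line. Each of these values rests on 1 library per treatment.

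**Figure D3:**
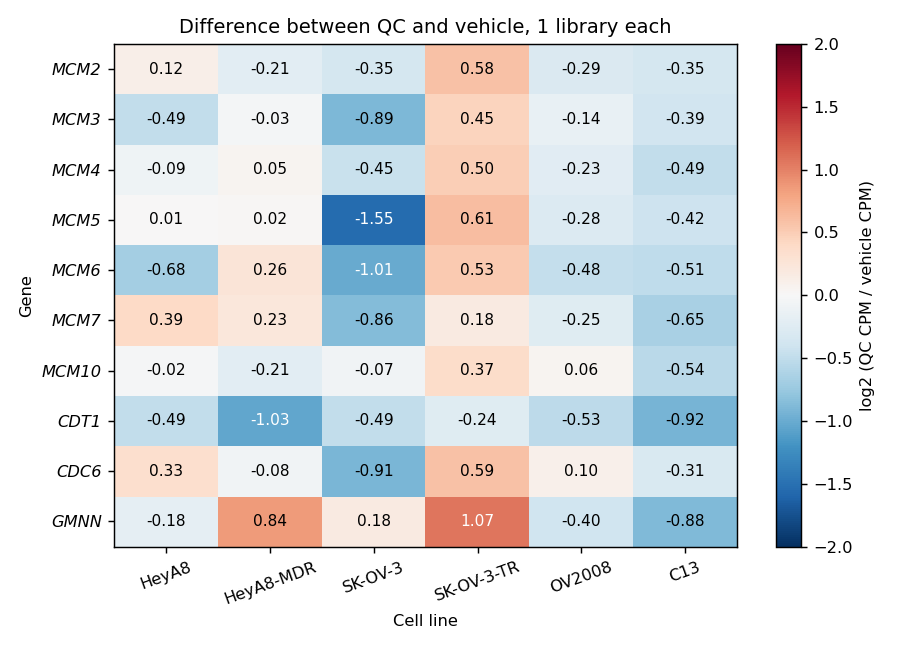
Log2 ratio of the QC to the vehicle level for each licensing gene (rows) in each line (columns), blue for lower and red for higher with QC, with the value printed in each cell. The CDT1 row is blue throughout, the SK-OV-3-TR column is red except for CDT1, and the C13 column is blue throughout.

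MCM5 had the largest difference of any licensing gene, from 29.7 to 10.1 CPM in SK-OV-3 (log2 -1.55, counting interval -1.76 to -1.33). In SK-OV-3-TR it went the other way, from 45.1 to 69.0 CPM, while HeyA8 had 78.6 CPM with vehicle and 79.0 CPM with QC, and HeyA8-MDR 103 and 105 CPM. In OV2008 it went from 339 to 280 CPM and in C13 from 350 to 262 CPM. MCM7 was higher in both HeyA8 lines, from 102 to 134 CPM in HeyA8 and from 178 to 208 CPM in HeyA8-MDR, and lower in SK-OV-3, from 52.2 to 28.7 CPM. In SK-OV-3-TR MCM7 went from 168 to 190 CPM, in OV2008 from 419 to 353 CPM and in C13 from 503 to 320 CPM. For both subunits SK-OV-3 had the largest relative difference of the 6 lines. The MCM7 level of HeyA8 with QC was 42.0% of the way in CPM from the HeyA8 to the HeyA8-MDR vehicle level, whereas that of MCM5 was 1.51% of the way. Over all 6 lines the MCM7 difference was -0.16 in edgeR, and -0.27 without HeyA8.

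MCM2 and MCM4 had the smallest spreads between lines among the subunits. MCM2 lay between -0.35 in SK-OV-3 and 0.58 in SK-OV-3-TR, and MCM4 between -0.49 in C13 and 0.50 in SK-OV-3-TR. Their edgeR differences over all lines were -0.09 (SE 0.139) and -0.12 (SE 0.139). Without HeyA8 both were at -0.13. MCM10 was at -0.54 in C13, 0.37 in SK-OV-3-TR and -0.21 in HeyA8-MDR, and at -0.02 to 0.06 in HeyA8 and OV2008, with SK-OV-3 at -0.07. CDC6 was lower in SK-OV-3, from 16.5 to 8.72 CPM, and in C13, from 160 to 130 CPM, with HeyA8-MDR at 43.5 and 41.3 CPM. It was higher in HeyA8 (28.6 to 36.0 CPM, 49.4% of the way to the HeyA8-MDR vehicle level), SK-OV-3-TR (23.8 to 36.0 CPM) and OV2008 (159 to 171 CPM). Apart from CDT1, every licensing gene was lower in some lines and higher in others, and all 9 had unadjusted p above 0.1 over the 6 lines.

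Across the 6 lines, the QC difference of a subunit correlated with the mean of the other subunits at r from 0.76 for MCM7 to 0.93 for MCM4, and that of CDC6 with the mean of all 6 at 0.90. The values were 0.63 for GMNN, 0.56 for MCM10 and 0.22 for CDT1. Without HeyA8 the subunits ran from 0.79 for MCM2 to 0.98 for MCM3, and CDC6 was at 0.93, GMNN at 0.66, MCM10 at 0.55 and CDT1 at 0.21. They are descriptions over 6 or 5 points, in which the members of a library share its depth and normalization.

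In the 3 sensitive lines all 10 licensing genes had a fitted difference below 0, as had 48.5% of all genes tested. The median of the licensing genes was -0.24, beside 0.02 over all genes. The 10 values are not independent, as the subunits moved together across lines. MCM10 was at -0.0058 and turned to 0.0066 under library size alone. MCM6 was lower in each sensitive line. It went from 41.8 to 26.1 CPM in HeyA8, from 53.0 to 26.3 CPM in SK-OV-3 and from 154 to 111 CPM in OV2008. Its difference was -0.72 (SE 0.216, unadjusted p = 0.00614, edgeR's adjusted p = 0.621). MCM3 was lower in each as well, from 59.1 to 42.2, from 80.6 to 43.4 and from 349 to 316 CPM, with a difference of -0.51 (SE 0.211). CDT1 differed by -0.51 (SE 0.198). These were the 3 licensing genes with an unadjusted p under 0.05, which 1234 genes (6.59%) reached. None of the 18720 genes passed an adjusted p of 0.05 in edgeR (0%), and 32 did in DESeq2, with no licensing gene among them. Without SK-OV-3, only 1 licensing gene had an unadjusted p under 0.05, and MCM5 moved from -0.58 to -0.15. In HeyA8 with QC, the library that stood apart, MCM6 at 26.1 and MCM3 at 42.2 CPM were close to the vehicle levels of HeyA8-MDR, 25.8 and 42.7 CPM. MCM4 at 209.5 CPM lay past the 215 CPM of HeyA8-MDR from its own vehicle level of 222 CPM (183% of the way). The gap between these vehicle levels was small (log2 -0.05). Of the other licensing genes, CDC6 and MCM7 lay 49.4% and 42.0% of the way there in CPM, GMNN 20.7%, MCM10 4.79% and MCM5 1.51%, and MCM2 at 62.4 CPM lay between 57.5 and 88.5 CPM, while CDT1 at 23.1 CPM lay on the other side of its HeyA8 vehicle level from the 52.3 CPM of HeyA8-MDR. Without HeyA8 the MCM6 difference was -0.74 and MCM3 -0.52, and 9 of the 10 genes were below 0. Without SK-OV-3 it was 7 of 10.

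In the 3 resistant lines the licensing genes split, with 7 fitted differences above 0 and 3 below, where 51.3% of all genes tested were below 0. The median of the licensing genes was 0.01, beside -0.01 over all genes. MCM2, MCM3 and MCM4 were at 0.0041, 0.0083 and 0.0178, so their signs say little. CDT1 alone had an unadjusted p under 0.05, with -0.73 (SE 0.197, unadjusted p = 0.00297, edgeR's adjusted p = 0.816), where 1128 genes (6.03%) did. MCM6 went from 237 to 167 CPM in C13 but from 25.8 to 30.9 CPM in HeyA8-MDR and from 61.2 to 88.3 CPM in SK-OV-3-TR. No gene passed the adjusted threshold in edgeR (0%) or in DESeq2. The split rested on single lines: without SK-OV-3-TR all 10 were below 0, and without C13 1 was. It also moved with the scaling, with 6 below 0 under library size alone. Without both HeyA8 lines CDT1 was at -0.59, and without SK-OV-3-TR, where it differed least, at -0.96.

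The difference between the classes was tested as an interaction. This test compared the QC differences of the classes and did not pair a resistant line with its sensitive partner. MCM6 had the largest value of the 10, with a QC difference 0.81 higher (log2) in resistant than in sensitive lines (SE 0.306, unadjusted p = 0.0213, edgeR's adjusted p = 0.9998), ranked 59 by p. In HeyA8-MDR and SK-OV-3-TR it was higher with QC and in all 3 sensitive lines lower, but C13 at -0.51 matched its partner OV2008 at -0.48. It was the 1 licensing gene with an unadjusted p under 0.05, which 217 genes (1.16%) had. No gene passed the adjusted threshold in edgeR (0%) and 1 did in DESeq2. Without both HeyA8 lines the MCM6 value was 0.74, and no licensing gene then had an unadjusted p under 0.05. For CDT1 the classes differed by -0.23 (SE 0.278, edgeR's adjusted p = 0.9998), which leaves differences of either sign within its error. The CDT1 value was -0.22 without HeyA8 and -0.08 without HeyA8-MDR.

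With vehicle, CDT1 was higher in the resistant line of 3 of 3 pairs, by 2.13-fold in C13 over OV2008, 1.60-fold in HeyA8-MDR over HeyA8 and 5.18-fold in SK-OV-3-TR over SK-OV-3. MCM7 was higher by 1.20-, 1.74- and 3.21-fold in the same order. MCM5 and CDC6 were higher in all 3 pairs too, though in C13 by only 1.03- and 1.01-fold, and 13.1% of all genes tested were higher in all 3. GMNN went the other way in 2 pairs, at 0.438 and 0.813 of the sensitive level in HeyA8-MDR and SK-OV-3-TR, and was 1.40-fold higher in C13. MCM10 was 2.77-fold higher in SK-OV-3-TR and 0.709 of its partner's level in HeyA8-MDR.

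In edgeR with the pair as a block, the vehicle difference was 1.38 on the log2 scale for CDT1 (SE 0.431, unadjusted p = 0.0188) and 0.92 for MCM7 (SE 0.367, unadjusted p = 0.0465), the 2 licensing genes under 0.05 among 694 genes (3.71%). Both had an adjusted p of 0.994, and no gene passed (0%), while 48 did in DESeq2 without either. SK-OV-3-TR carried much of both values: without that pair they were 0.90 and 0.55. Without the HeyA8 pair they were 1.73 and 0.97. With QC the gap between SK-OV-3-TR and SK-OV-3 was wider, at 6.76-fold for MCM5, 6.61-fold for MCM7 and 6.14-fold for CDT1. The CDT1 gap was narrower with QC in the other pairs, at 1.10-fold for HeyA8-MDR and 1.61-fold for C13.

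**Figure D4:**
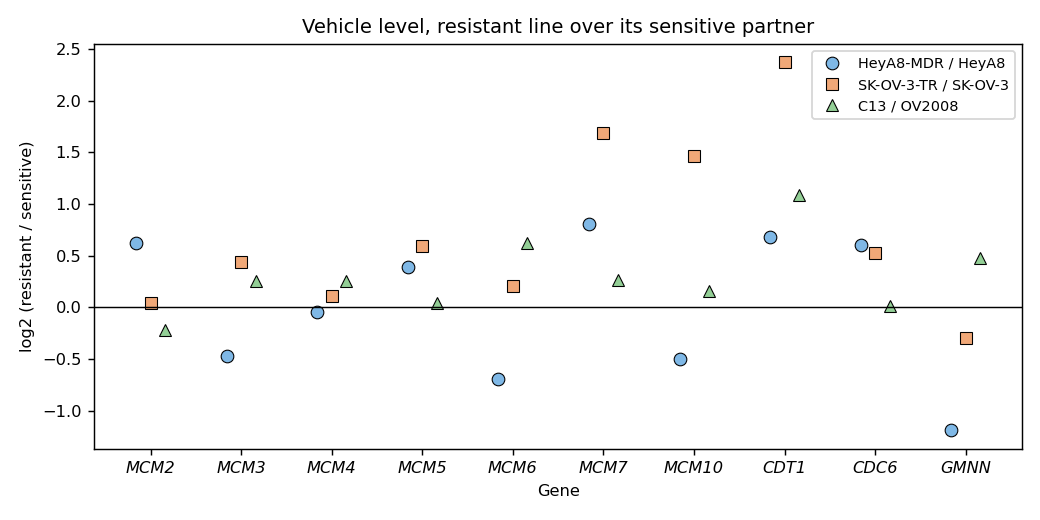
Log2 ratio of the vehicle level in a resistant line to that in its sensitive partner, for each licensing gene, with 1 point per pair. CDT1, MCM5, MCM7 and CDC6 lay above 0 in all 3 pairs, and the highest point is CDT1 in SK-OV-3-TR at 2.37.

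No gene of the other lists of the pathway passed the adjusted threshold over the 6 lines in edgeR, and the counts below are at an unadjusted p under 0.05, where 1495 genes were higher and 1345 lower over the whole table. In the origin recognition complex, 1 of 7 genes was higher and 1 lower. ORC4, a subunit of the complex, was higher in 6 of 6 lines (log2 0.36, SE 0.122), and ORC1, its largest subunit, was at -0.32 (SE 0.133), lower beyond counting error in 4 lines and at -0.0019 in SK-OV-3-TR. Among 13 genes of helicase activation and firing, 1 was higher and 0 lower. TOPBP1, which helps to load CDC45, was at 0.31 (SE 0.126) and DONSON, another firing factor, at 0.30 (SE 0.142). None of the 6 relatives and partners of the MCM proteins had an unadjusted p under 0.05, and the 2 with the smallest p, MCM9 and MCM3AP, were at -0.18 and -0.11. Among 11 genes of CDT1 and CDC6 turnover, 1 was higher and 2 lower. SKP2, the substrate receptor of an SCF ubiquitin ligase that targets CDT1, was at -0.78 (SE 0.224), lower in HeyA8, HeyA8-MDR, OV2008 and C13 and near 0 or above in the SK-OV-3 pair. CUL4B, a cullin of the CRL4 ligases, was at 0.46 (SE 0.144).

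Among 13 E2F and pocket protein genes, 2 were higher and 1 lower at an unadjusted p under 0.05. RB1, the pocket protein that restrains E2F, was higher with QC in 6 of 6 lines, as were 4.13% of all genes tested (log2 0.63, SE 0.152, unadjusted p = 0.00131, edgeR's adjusted p = 0.151). E2F7, a repressor E2F, was also higher in 6 of 6 (0.27, SE 0.104). Among 27 replication fork enzymes, 0 were higher and 1 lower: TIMELESS, a fork protection protein, was at -0.52 (SE 0.139), lower beyond counting error in 5 of 6 lines, and POLD1, the catalytic subunit of polymerase delta, was at -0.31 (SE 0.145). Among 16 other transcripts of G1 and S phase, 0 were higher and 2 lower, UNG, which removes uracil from DNA, at -0.37 (SE 0.14) and CHAF1B, a chromatin assembly factor subunit, at -0.34 (SE 0.144). Of 16 G2 and mitosis transcripts, 3 were higher and 0 lower, with TOP2A and CDK1 both at 0.64 (SE 0.229 and 0.256). The list medians over all lines were -0.14 for the licensing genes, -0.15 for other G1 and S transcripts, -0.08 for fork enzymes and 0.27 for G2 and mitosis, and within 0.06 of 0 for the remaining 5 pathway lists, beside 0.00 for all genes. Without HeyA8 the medians were -0.16 for the licensing genes, -0.09 for other G1 and S transcripts, -0.09 for fork enzymes, 0.36 for G2 and mitosis and 0.11 for the origin recognition complex. The 16 genes named from these lists then had the same sign, with RB1 at 0.63, E2F7 at 0.28, ORC4 at 0.37, ORC1 at -0.33, SKP2 at -0.74, CUL4B at 0.40 and TIMELESS at -0.45. Counts at an unadjusted p under 0.05 became 6 higher in G2 and mitosis, 2 higher in firing, 2 lower among fork enzymes, 1 lower among other G1 and S transcripts and 0 lower among E2F and pocket proteins. Without both HeyA8 lines the counts were 0 higher and 0 lower in CDT1 and CDC6 turnover, where SKP2 was at -0.52 and CUL4B at 0.27. For the fits without HeyA8 or its family, the share of all genes under that threshold is not given here. No excess is therefore read from their counts. Of the 8 ovarian and epithelial markers 1 was higher (KRT7, 0.43) and 0 lower, KRT19 being at -0.25, and of 3 tested markers of leukocytes, endothelium and fibroblasts 0 had an unadjusted p under 0.05, with CDH5 at 0.32 and VWF at 0.24.

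Line by line, the list medians set the licensing genes beside the rest of the cell cycle. In C13 and OV2008 the G2 and mitosis median was below 0 (-0.44 and -0.26), as was that of the licensing genes. In SK-OV-3 they parted: the licensing genes had a median of -0.68 and the G2 and mitosis list 1.56, with all 16 of its genes higher, while other G1 and S transcripts were at -0.12 and fork enzymes at -0.15. In SK-OV-3-TR both were above 0 (0.51 and 0.66). In HeyA8-MDR the G2 and mitosis median was 0.71 with licensing genes near 0, and in HeyA8 it was -0.52. The part of cell cycle position in the licensing gene values was not tested.

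**Figure D5:**
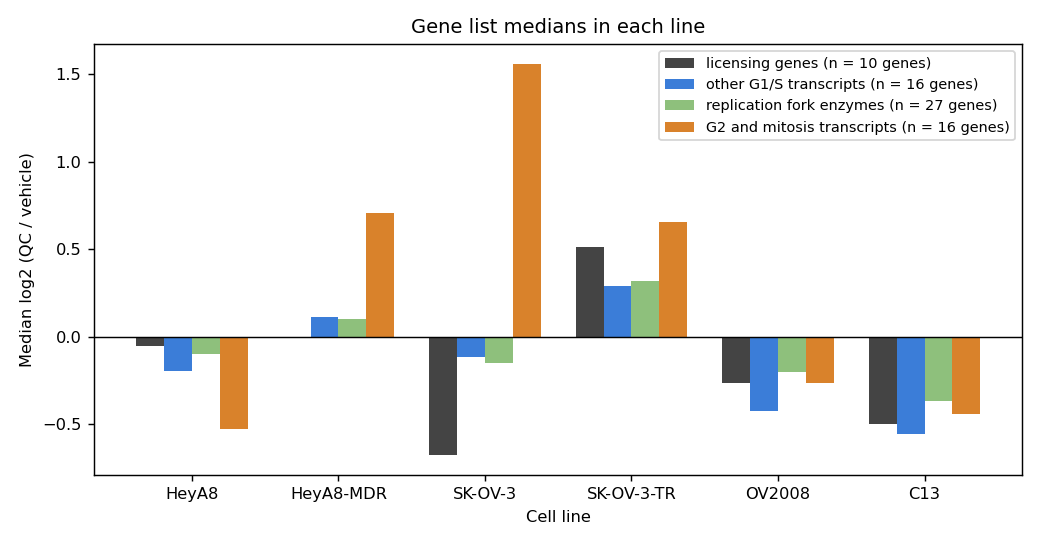
Median log2 ratio of QC to vehicle level over the genes of 4 lists in each line (bars, from 1 library per treatment, without error). The licensing genes and the G2 and mitosis transcripts lay on opposite sides of 0 in SK-OV-3, at -0.68 and 1.56.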

How the data were processed

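PolyA RNA of 12 cultures was sequenced by the authors, who deposited raw read counts per gene from HTSeq. The study's methods name TopHat and hg19, whereas the submitters' processing notes name STAR 2.7.3a, HTSeq 0.6.1p1 and GRCh38.p13. The annotation release is not given in the sources used here. Of 60669 identifiers, 58663 were paired with a symbol, and the other 2006 held 0.132% of the counts. Genes were filtered with filterByExpr (minimum count 10), normalized by TMM and tested with edgeR 4.0.16 (quasi-likelihood, R 4.3.3), with the line as a block for QC and the isogenic pair for vehicle levels. The line block follows from the line names in the labels, which pair a QC and a vehicle library (a replicate number covers the 4 libraries of an isogenic pair of lines), and the deviations of both libraries of a line from their group means correlated at 0.893 to 0.929. DESeq2 1.42.0, other scalings, other filters and left-out lines were alternatives. Plotted levels are TMM-normalized CPM, with lengths from merged GENCODE exons. The named genes were all 10 licensing genes, the 2 genes of each other list with the smallest p for QC over all lines, and the 6 genes outside the lists most like MCM2 to MCM7 in level. Members and lists were chosen with earlier results of these data known. The fits were tested on simulated data. Residual degrees of freedom were 5, 4 and 2 for the common, per-class and vehicle fits. MCM4 and MCM5 promoters were not analysed here.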

Additional observations from a re-analysis of the deposited data

How the results depend on the processing

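Taking the 10 licensing genes together, 123 of 130 alternative values of the QC difference over all lines had the direction reported, 130 of 140 in sensitive lines, 115 of 140 in resistant lines, 132 of 140 for the difference between classes and 72 of 80 for vehicle levels. CDT1 kept its direction in all of its own. GMNN over all lines turned to -0.12 without the replicate block and to -0.0197 without the HeyA8 family, which was chosen after seeing the data, and ran from -0.11 to 0.28 with 1 line left out. Among the markers, CDH5 turned to -0.0431 without the HeyA8 family, and VWF to -0.38 without the replicate block and ran from -0.29 to 0.82 with 1 line left out. The cause was not tested. Without the replicate block, which the shared lines call for, 0 licensing genes had an unadjusted p under 0.05 in each of the 5 comparisons. The counts of genes with an adjusted p under 0.05 were 0 as reported, against 522 over all lines, 32 in sensitive lines, 1 for the difference between classes and 48 for vehicle levels with DESeq2. With no filter on low counts (39590 genes) they were 791 over all lines, 195 in sensitive lines, 35 in resistant lines and 5 for the difference, and with all 12 libraries 32 for vehicle levels. With 1 sensitive line left out they ran from 0 to 8 (8 without SK-OV-3). Licensing genes with an unadjusted p under 0.05 numbered 2 with no filter over all lines and for the difference, and 0 for the difference without the HeyA8 family. With 1 line or pair left out these counts ran from 1 to 3 over all lines (3 without SK-OV-3-TR), from 1 to 3 in sensitive lines (1 without SK-OV-3), from 1 to 2 in resistant lines (2 without C13), from 0 to 3 for the difference (0 without HeyA8-MDR, SK-OV-3 or SK-OV-3-TR, 3 without C13) and from 1 to 2 for vehicle levels (2 without the OV2008 family). Fits that lose a line leave a class with 2 lines. Shares of all genes under the unadjusted threshold are not given here for these alternatives, so no excess of licensing genes is read from the counts. At the depths sequenced, the lowest count of a licensing gene in a library was 138 (MCM10).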
